A study of Homo sapiens with 6 samples.

Results

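The genes described here are 10 components of the Notch pathway, chosen by symbol from the table of listed genes: the receptors NOTCH1, NOTCH2 and NOTCH3, the ligands JAG1, JAG2 and DLL1, the target genes HES1 and HEY1, the Notch inhibitor NUMB and the coactivator MAML1. They are 10 of 34694 listed genes, and all 10 were found under their own symbols. The samples were cultures of SCC25, an established line from a human oral squamous cell carcinoma, given 2.0 mM aspirin, an inhibitor of cyclooxygenases, for 72 h, with SCC25 kept for 72 h without aspirin as the control. Total RNA of each was hybridised to Illumina expression arrays, 3 per group. Replicates 1 and 3 of each group were on chip 1 and replicate 2 of each on chip 2. Whether a replicate was a culture of its own is not stated in the labels. The p-values below therefore measure only how these arrays spread, which may be technical variation, and precision is limited by having 3 arrays a group.

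Notch receptors sit in the cell membrane and are activated by Jagged or Delta ligands on a neighbouring cell. Ligand binding lets the protease ADAM10 and then gamma-secretase cut the receptor, and the freed intracellular part enters the nucleus, binds the DNA-binding protein RBPJ and recruits Mastermind coactivators such as MAML1 to genes of the HES and HEY families, which encode transcriptional repressors. In stratified squamous epithelium, Notch signalling is known for promoting the exit of basal cells into differentiation, and NOTCH1 is recurrently mutated in squamous carcinomas of the head and neck.

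The promoters of 4 HES genes are printed. These are the classical target among the 10 components (HES1) and the other HES family genes that passed the test described below (HES5, HES6 and HES7). Each window runs from 250 bases before to 50 bases after the annotated start and comes from RefSeq on GRCh38.p14. Capitals mark the letters TGGGAA, the core of the site to which RBPJ binds, searched on both strands as the single motif, so that an antisense match appears as TTCCCA.
HES1: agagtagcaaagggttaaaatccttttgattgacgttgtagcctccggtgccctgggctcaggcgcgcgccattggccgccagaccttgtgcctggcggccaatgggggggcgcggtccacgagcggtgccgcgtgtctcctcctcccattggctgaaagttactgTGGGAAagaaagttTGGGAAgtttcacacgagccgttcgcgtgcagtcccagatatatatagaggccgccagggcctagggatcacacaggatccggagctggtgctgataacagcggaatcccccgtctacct
HES5: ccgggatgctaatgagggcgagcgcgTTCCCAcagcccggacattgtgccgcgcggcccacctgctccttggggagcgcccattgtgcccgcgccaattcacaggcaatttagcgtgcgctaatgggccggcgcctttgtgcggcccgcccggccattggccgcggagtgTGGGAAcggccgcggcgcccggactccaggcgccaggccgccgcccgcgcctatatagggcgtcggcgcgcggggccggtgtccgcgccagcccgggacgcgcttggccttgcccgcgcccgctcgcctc
HES6: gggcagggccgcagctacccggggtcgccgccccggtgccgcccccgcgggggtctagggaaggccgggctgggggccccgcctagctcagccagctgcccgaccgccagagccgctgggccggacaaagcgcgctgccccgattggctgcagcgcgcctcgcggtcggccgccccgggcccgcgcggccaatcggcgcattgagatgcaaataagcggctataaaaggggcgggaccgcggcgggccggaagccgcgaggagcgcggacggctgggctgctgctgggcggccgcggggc
HES7: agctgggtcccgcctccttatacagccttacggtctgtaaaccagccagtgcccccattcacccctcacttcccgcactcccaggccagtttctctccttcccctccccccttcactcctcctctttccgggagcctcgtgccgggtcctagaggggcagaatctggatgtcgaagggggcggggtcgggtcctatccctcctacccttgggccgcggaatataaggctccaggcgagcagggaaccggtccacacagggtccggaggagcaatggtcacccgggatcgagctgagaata
The HES1 window is chr3:194135898-194136197 on the plus strand, and it held the motif at 84 and 70 bases before the start, both in the sense direction. The HES5 window, chr1:2530214-2530513 on the minus strand, held a sense match at 80 bases and an antisense match at 224 bases before the start. No match was present in the windows of HES6 (chr2:238239989-238240288, minus strand) and HES7 (chr17:8124057-8124356, minus strand). The motif stood in 24.0% of all 35116 windows of the table, and 3.8% held 2 or more copies. Among 9 genes looked up (HES1, NRARP and other HES and HEY genes) it occurred in 5, the others with it being HES4, HEY2 and HEYL. Of 8 of the 10 pathway components looked up, HES1 had it, while NOTCH1, NOTCH2, NOTCH3, JAG1, JAG2, NUMB and MAML1 did not. A match of letters is a description of the sequence and not a binding site.

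All levels below are normalized log2 signals, each compared only within its own gene because probes differ in brightness, and each difference is aspirin minus control with its SE, over 3 arrays in each group. Adjusted p is that of limma with Benjamini-Hochberg adjustment over the 15128 genes tested, and 0.05 was the threshold. Between aspirin and control, 3094 genes passed (20.5%), of which 1610 were higher (10.6%) and 1484 lower (9.81%) with aspirin. Of the 10 Notch genes, 8 were tested and 0 passed. NOTCH2 and MAML1 missed the filter, which asked for detection on at least 3 arrays. An unadjusted p under 0.05 was reached by 2 of the 8, NOTCH1 and JAG1, and by 34.3% of all genes tested. Arrays with the same replicate number deviated together, and when replicate number entered the fit as a block, NOTCH1 and JAG1 passed as higher with aspirin, 2 of 8, beside 5116 genes in all (33.8%). The arrays of the groups did not overlap for 5 of the 8 (62.5%), with NOTCH1, JAG1, DLL1 and HEY1 higher and HES1 lower in aspirin, against 38.8% of all genes tested. HEY1 met the filter through its aspirin arrays, so the filter favoured its place among the 5. The median difference was 0.34 over the 8 tested Notch genes and 0.02 over all genes tested.

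**Figure D1:**
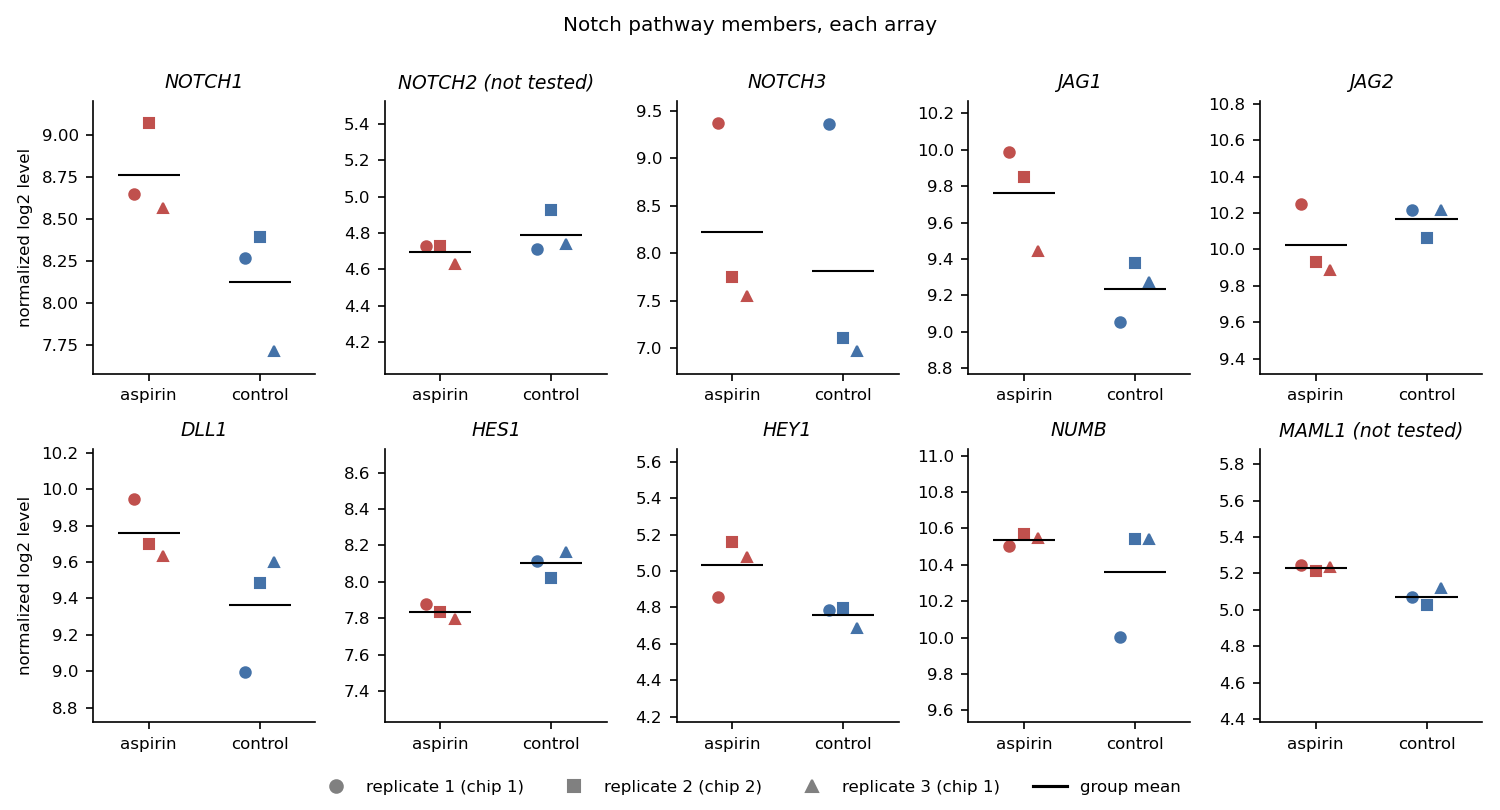
Normalized log2 level (vertical axes, scaled for each gene) of the 10 Notch genes on the 3 aspirin and 3 control arrays, with symbols for replicate and chip and lines for group means. NOTCH3 is split by replicate 1 in both groups. For NOTCH1, JAG1, DLL1, HEY1 and the untested MAML1 every aspirin array lies above every control array, and for HES1 below.

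The arrays had median signals of 101.9 to 127 intensity units over a background mean of 95.5 to 116, with 14691 to 15170 genes detected. All 8 squamous epithelial markers were above background on all 6 arrays, meaning a detection score over 0.95 or a signal over the background mean plus 3 SD. Their summed signal above background was 35739 to 43874 units on aspirin arrays and 49728 to 60478 on control arrays, and 3 of the 8 fell, KRT5 (-1.26), KRT14 (-1.26) and SFN (-0.91). Of 6 fibroblast markers 4 were tested and all 4 fell, LUM (-2.86), COL1A1 (-1.23), COL1A2 (-1.04) and DCN, which was at least 3.48-fold lower. DCN met the detection filter only through its control arrays, so the filter favoured its fall. The 6 fibroblast markers summed to 90.3 to 151 units on aspirin arrays and 360 to 1032 on control arrays, and PDGFRB was above background on no array. The 6 endothelial markers summed to 7.65 to 42.9 units with aspirin and 19.0 to 88.5 in control, with CDH5, KDR and CLDN5 above background on no array. The 6 leukocyte markers summed to 3578 to 6253 units with aspirin and 3663 to 7221 in control. PTPRC and CD3E were above background on no array. Another 3 were above background on all 6 arrays and tested, of which CD14 fell by 0.95. The other 2 of these did not pass and made up most of the sum. The part of these markers in the differences of the Notch genes was not tested. In RNA of whole cultures, fewer cells of a kind and less RNA per cell cannot be told apart.

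Of the receptors, NOTCH1 showed the largest difference. Its level was 8.65, 9.07 and 8.56 on aspirin arrays 1 to 3, against 8.26, 8.39 and 7.71 on control arrays 1 to 3. All 3 aspirin arrays were above all 3 controls, although the lowest aspirin array, 8.56, lay close to the highest control, 8.39. The means were 8.76 ± 0.27 with aspirin and 8.12 ± 0.36 in control (SD, n = 3 each), a difference of 0.64 ± 0.21 or 1.55-fold. It did not pass (adjusted p = 0.0689, limma), with a 95% interval of 0.15 to 1.12 before adjustment. Within the replicate pairs the difference was 0.38, 0.67 and 0.85. With the replicate block, NOTCH1 passed (adjusted p = 0.00806), and it did with the chip as a block (adjusted p = 0.0336), whereas on the chip 1 arrays alone the difference was 0.62 (adjusted p = 0.164).

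NOTCH2 was at the level of the background. It read 4.73, 4.73 and 4.63 with aspirin, against 4.71, 4.93 and 4.74 in control. It exceeded the background on 0 of 3 aspirin arrays and 1 of 3 control arrays. The groups overlapped, and the difference was -0.10 (adjusted p = 0.664 without the filter). Near-identical copies of part of the NOTCH2 gene exist in the human genome, so its signal is uncertain in any case.

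NOTCH3, a receptor known from vascular smooth muscle and from keratinocytes, differed more between replicate numbers than between treatments. It read 9.37, 7.75 and 7.55 on aspirin arrays 1 to 3, against 9.36, 7.11 and 6.97 on control arrays 1 to 3. Replicate 1 was the highest array in each group, and both replicate 1 arrays lay above the other 4. The deposited signals show the same before any normalization, at 598.6, 344.7 and 256.4 intensity units with aspirin and 721.6, 264.7 and 209.3 in control. The difference was 0.41 ± 0.67 (adjusted p = 0.720; 95% interval -1.13 to 1.95), with 0.01, 0.64 and 0.58 within pairs 1 to 3, and adjusted p = 0.0703 with the replicate block. Without both replicate 1 arrays the difference was 0.61 (adjusted p = 0.0255). Leaving out single arrays turned its sign, to -0.16 without aspirin replicate 1 and -0.01 without control replicate 3, and gave 0.06 without control replicate 2 and 1.18 without control replicate 1 (adjusted p = 0.121).

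**Figure D2:**
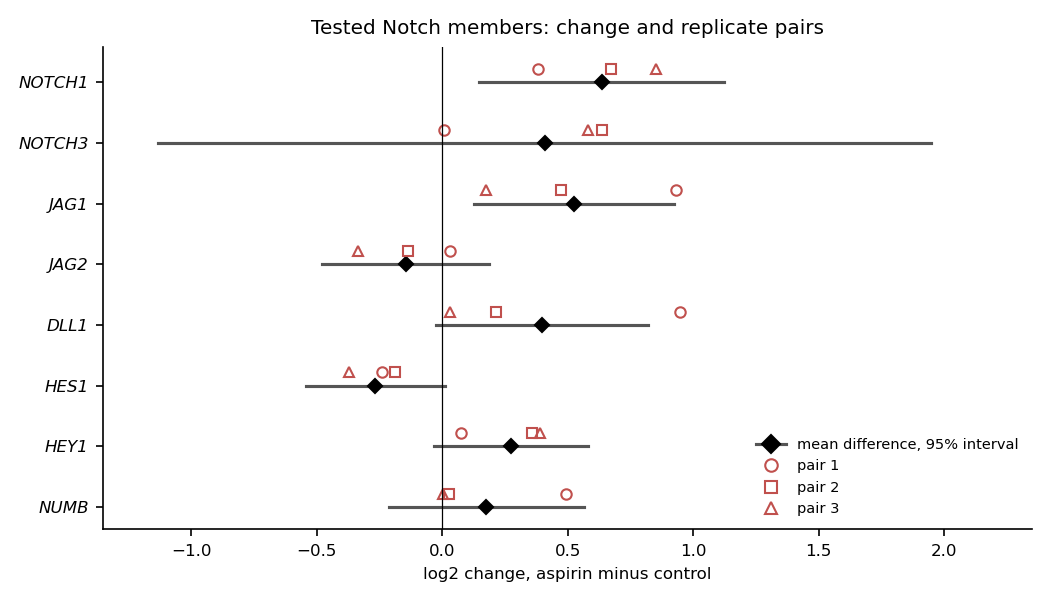
Difference in log2 level, aspirin minus control (horizontal axis), of the 8 tested Notch genes, with the mean difference and its 95% interval (diamonds and bars) and the differences within replicate pairs 1 to 3 (open symbols). The intervals of NOTCH1 and JAG1 lie above 0 before adjustment, and that of NOTCH3 runs from -1.13 to 1.95.

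Among the ligands, JAG1, which encodes Jagged 1, read 9.99, 9.85 and 9.44 with aspirin, against 9.05, 9.38 and 9.27 in control. The groups did not overlap, but aspirin array 3 lay just above control array 2. Means were 9.76 ± 0.28 with aspirin and 9.23 ± 0.17 in control (SD, n = 3 each), a difference of 0.53 ± 0.17 or 1.44-fold (95% interval 0.13 to 0.93). JAG1 missed the threshold (adjusted p = 0.0657, limma) and passed with the replicate block (adjusted p = 0.0345). The pair differences were 0.93, 0.47 and 0.17, so pair 1 carried the largest. Without both replicate 1 arrays the difference was 0.32 (adjusted p = 0.232), without aspirin replicate 3 it was 0.68 and passed (adjusted p = 0.0405), and on chip 1 alone it was 0.55 (adjusted p = 0.207).

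DLL1, a Delta-type ligand, read 9.95, 9.70 and 9.63 with aspirin, against 8.998, 9.48 and 9.60 in control. The groups did not overlap, but aspirin array 3 and control array 3 were almost level, and control array 1 was the lowest. The difference was 0.40 ± 0.18 (adjusted p = 0.170, or 0.128 with the replicate block; 95% interval -0.03 to 0.82). By pair it was 0.95, 0.21 and 0.03, and without both replicate 1 arrays it was 0.12.

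JAG2, the other Jagged ligand, read 10.25, 9.93 and 9.88 with aspirin, against 10.22, 10.06 and 10.22 in control. The groups overlapped, with aspirin array 1 the highest of all 6. The difference was -0.15 ± 0.15 (adjusted p = 0.534; 95% interval -0.48 to 0.19). Pair differences were 0.03, -0.13 and -0.33.

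HES1, a classical Notch target that encodes a repressor, was the tested component with lower levels on every aspirin array. It read 7.88, 7.84 and 7.79 with aspirin, against 8.12, 8.02 and 8.17 in control. Both groups were tight and did not overlap, at 7.84 ± 0.04 with aspirin and 8.10 ± 0.07 in control (SD, n = 3 each). The difference of -0.27 ± 0.12 did not pass (adjusted p = 0.162, or 0.111 with the replicate block; 95% interval -0.54 to 0.01). It was -0.24, -0.19 and -0.37 by pair. An alternative correction, termed the all-gene background here, takes the background from every listed gene. It comes to 132 to 175 intensity units, more than the median signal of each array. Under it the HES1 difference was smaller and passed (-0.12, adjusted p = 0.0322).

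HEY1, a repressor of the related HEY family, lay close to the background. It read 4.86, 5.16 and 5.08 with aspirin, against 4.79, 4.80 and 4.68 in control, and it exceeded the background on 3 of 3 aspirin arrays and 1 of 3 control arrays. The groups did not overlap, and the difference was 0.27 ± 0.13 (adjusted p = 0.188, or 0.122 with the replicate block). Its aspirin arrays alone met the detection filter and its control arrays alone would not have, so the filter favoured a rise. With the all-gene background the difference was 0.02.

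NUMB, an endocytic adaptor that promotes the removal of Notch receptors, was steady apart from 1 array. It read 10.50, 10.57 and 10.55 with aspirin, against 10.01, 10.54 and 10.54 in control, and control array 1 was low. The difference was 0.18 ± 0.17 (adjusted p = 0.520), with 0.50, 0.03 and 0.00 by pair. Without control replicate 1 it was -0.00.

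MAML1 read 5.24, 5.21 and 5.23 with aspirin, against 5.07, 5.02 and 5.12 in control. It exceeded the background on 1 of 3 aspirin arrays and 0 of 3 control arrays and was not tested. The groups did not overlap, but the difference was 0.16 (adjusted p = 0.226 without the filter), and 0.01 with the all-gene background.

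NOTCH3 and NUMB, whose replicate 1 arrays stood apart from the other 4 in both groups, are described further without a test, since they were picked for that pattern. The mean level of NOTCH3 was 9.36 on the replicate 1 arrays and 7.34 on the other 4, which differ by 2.02 or 4.06-fold. NUMB was lower on both replicate 1 arrays, by 0.30, mainly through control array 1. Both replicate 1 arrays were apart from the other 4 for 2 of the 8 tested Notch genes and for 17.2% of all genes tested. Among 53 other tested genes of the pathway, this held for 9 (17.0%). Of these, the repressor HES2 was 1.03 higher on the replicate 1 arrays, the repressors HEY2 and HEYL were lower by 1.04 and 0.78, and MFNG, a Fringe enzyme that adds sugar to the receptors, was lower by 1.28. KRT1, a keratin of differentiating cells above the basal layer, read 9.20 on control array 1 and was above background on no other array.

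By distance between log2 levels over the 6 arrays, each centred on its own mean, the genes nearest to NOTCH3 were ANKRD22 at a root mean square distance of 0.313, CHP2 at 0.401, PRICKLE1 at 0.418, SCNN1G at 0.428 and DSC2, a desmosomal cadherin, at 0.429. All 5 were highest on the replicate 1 arrays of both groups, which follows from their choice by nearness to NOTCH3. Those nearest to NOTCH1 were FTHL11 (0.104), FAM136A, FAM49A, RNF187 and PTH2R (0.122). The rule for such genes named a component past the threshold, of which there was none, so NOTCH1 and NOTCH3 were taken up after their values were seen.

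**Figure D3:**
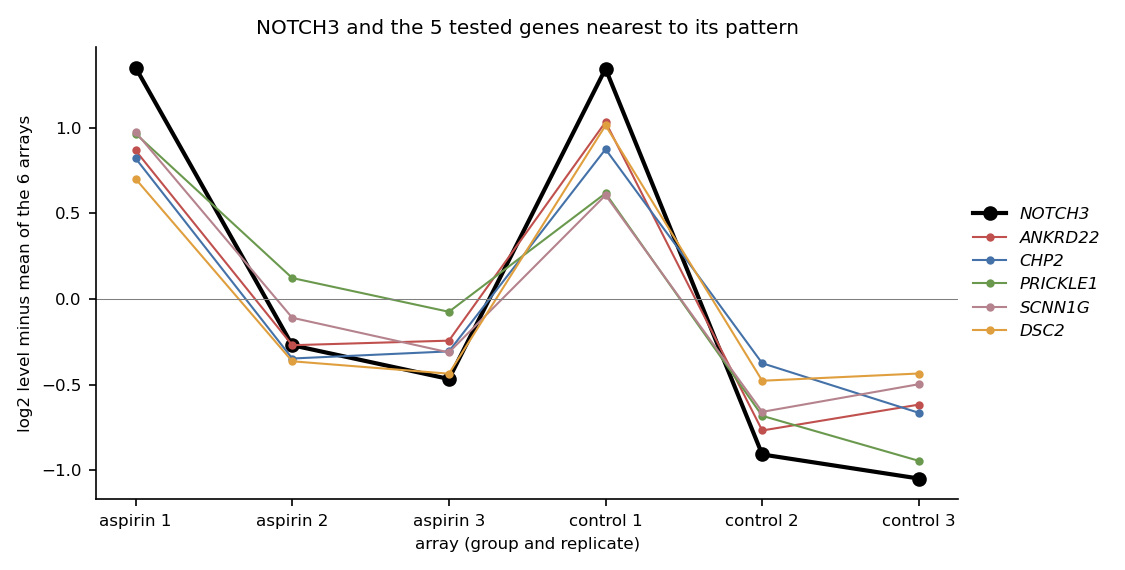
Log2 level minus the mean of the 6 arrays (vertical axis) of NOTCH3 and the 5 tested genes nearest to it, on aspirin arrays 1 to 3 and control arrays 1 to 3 (horizontal axis). NOTCH3, ANKRD22, CHP2, PRICKLE1, SCNN1G and DSC2 are all above their mean on replicate 1 of each group.

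Among 66 other genes of the pathway in the table, in 5 lists by role, 53 were tested, 9 rose, 6 fell and 38 did not pass. The median difference over the 53 was 0.00. Of the 53, 28.3% passed, against 20.5% of all genes tested. With the replicate block 10 rose and 9 fell (35.8%, against 33.8% of all genes tested), and the groups did not overlap for 22 of the 53 (41.5%, against 38.8%), so both of these shares were near those of all genes. By list and without the block, 66.7% of 3 other receptors and ligands, 37.5% of 8 other targets and 14.3% of 14 processing genes passed. Of 12 traffic genes 25% did, and of 16 nuclear complex genes 31.2%, beside the same 20.5% of all genes tested.

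Among 8 other HES, HEY and NRARP genes, all of them tested, 2 rose and 1 fell, and HES6 and HES5 had the largest differences of the 53 genes. Whether Notch drives each of them in SCC25 was not tested. HES6, which in mouse antagonises HES1, read 8.24, 9.12 and 8.92 with aspirin, against 6.50, 7.26 and 6.88 in control. Every aspirin array was above every control array, and the gene rose by 1.88 ± 0.26, or 3.67-fold (adjusted p = 0.00234). HES7, known from the segmentation clock of the vertebrate embryo, read 7.57, 6.06 and 6.57 with aspirin, against 5.29, 5.30 and 5.63 in control. It rose by 1.33 ± 0.34 (adjusted p = 0.0257), most on aspirin array 1. HES5, a Notch target of neural progenitors, read 5.54, 5.01 and 5.01 with aspirin, against 8.42, 6.48 and 6.27 in control. It fell by 1.87 on the log2 scale (SE 0.50, adjusted p = 0.0318), with control array 1 far above the other controls, and the difference was -1.19 without that array (adjusted p = 0.00609).

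The calls of these 3 differ in how they depend on single arrays and on the background. HES6 passed in 20 of 22 other settings and lost its call under the all-gene background (0.89, adjusted p = 0.0522) and when both arrays of replicate 3 were left out (adjusted p = 0.0662). HES7 and HES5 each lost the call in 10 of 22, among them the all-gene background (0.17 for HES7 and -0.32 for HES5). These 10 count 1 fit as 2 settings, since chip 1 alone and leaving out both replicate 2 arrays use the same arrays. HES5 lost it without aspirin replicate 2 (adjusted p = 0.0889) or 3 (adjusted p = 0.101), and HES7 without aspirin replicate 3 (adjusted p = 0.0639) or any 1 of the 3 controls (adjusted p = 0.0522 to 0.0720). Without both replicate 1 arrays the HES7 difference was 0.85 (adjusted p = 0.0226).

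HES2, HES4, HEY2, HEYL and NRARP, a feedback inhibitor of Notch, did not pass. Of these, HES4 had the tightest aspirin group, at 11.17, 11.17 and 11.18, against 10.61, 11.11 and 10.66 in control (0.38 ± 0.16, adjusted p = 0.136).

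**Figure D4:**
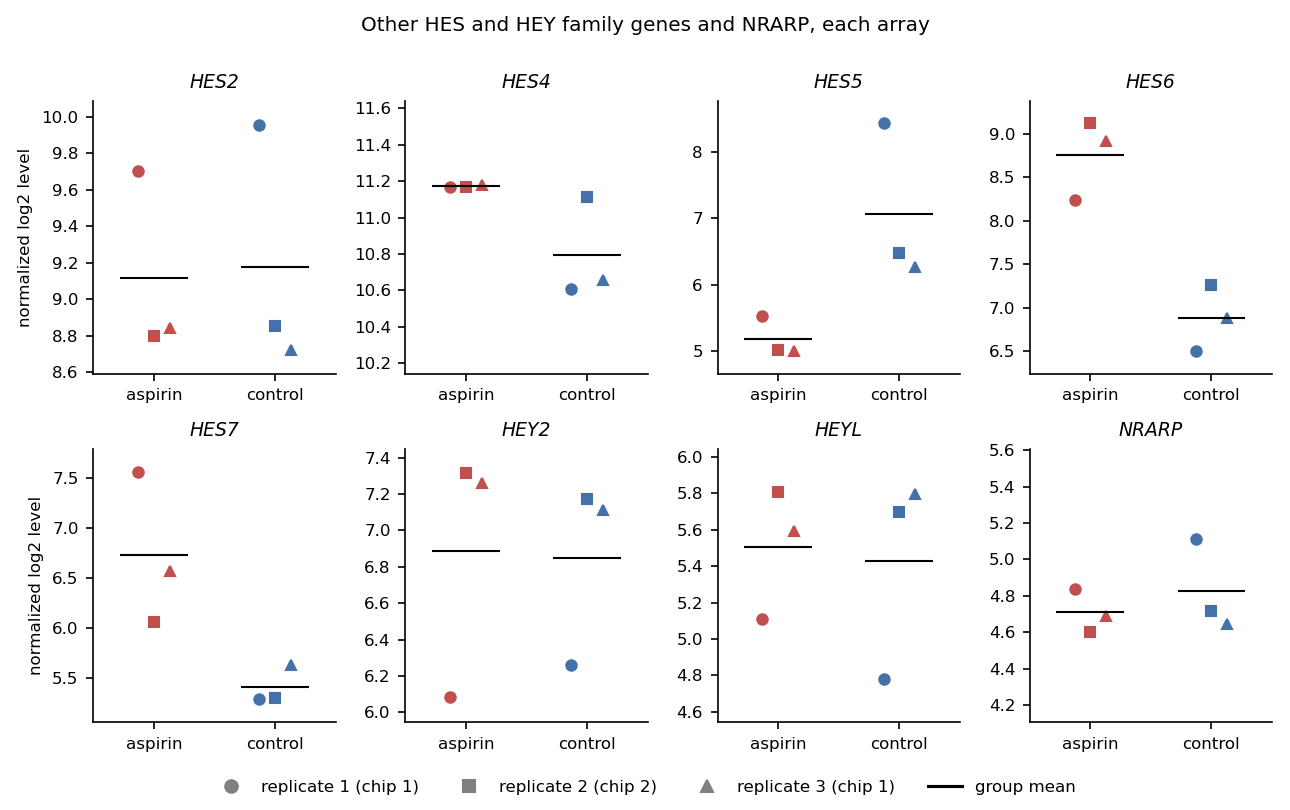
Normalized log2 level (vertical axes, scaled for each gene) of the 8 other HES, HEY and NRARP genes on 3 aspirin and 3 control arrays, with lines for group means. HES6 and HES7 are higher and HES5 lower on every aspirin array, while HES2, HEY2, HEYL and, by a smaller gap, NRARP are split by replicate 1.

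Of 14 genes of receptor processing and glycosylation, 1 rose and 1 fell, both of them Fringe enzymes, which lengthen the O-fucose sugars of Notch receptors and alter their response to Delta and Jagged ligands. RFNG read 8.49, 8.70 and 8.70 with aspirin, against 7.22, 7.05 and 7.17 in control. It rose by 1.48 ± 0.13, or 2.79-fold (adjusted p = 0.000461), and passed in all 22 other settings, with 0.69 under the all-gene background. LFNG read 5.54, 6.35 and 6.17 with aspirin, against 7.43, 7.65 and 7.30 in control. It fell by 1.44 on the log2 scale (SE 0.22, adjusted p = 0.00330), by 0.26 under the all-gene background, and missed the threshold only without both replicate 3 arrays (adjusted p = 0.0537). MFNG differed by 0.00 ± 0.44 (adjusted p = 0.999). The sheddase ADAM10, named after its values were seen, differed by -0.49 ± 0.18 (adjusted p = 0.0840) and passed as lower with the replicate block (adjusted p = 0.0343). The gamma-secretase subunits PSEN2, NCSTN, APH1A, APH1B and PSENEN did not pass.

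Of 12 tested genes of receptor and ligand traffic, 2 rose and 1 fell. DTX3, of the Deltex family of ubiquitin ligases, read 7.07, 7.03 and 7.29 with aspirin, against 5.96, 5.98 and 5.995 in control. The groups did not overlap, and the gene rose by 1.15 ± 0.13 (adjusted p = 0.00100), passing in all 22 other settings, although by 0.18 under the all-gene background. MIB1 and MIB2, both ubiquitin ligases that start the endocytosis of Notch ligands, moved in opposite directions, and NEURL1B, of the Neuralized ligases with the same role, did not pass. MIB1 fell by 0.72 (SE 0.16, adjusted p = 0.0172), exceeding the background on 2 of 3 aspirin arrays and 3 of 3 control arrays. MIB2 rose by 0.78 ± 0.21 (adjusted p = 0.0334). MIB1 lost its call without aspirin replicate 2 or 3 or control replicate 3 (adjusted p = 0.0583 to 0.0685), and with the all-gene background it differed by -0.05, with the call lost in 8 of 20 settings in all. MIB2 lost it in 11 of 21, among them without any 1 array other than control replicate 1 (adjusted p = 0.0525 to 0.0906), with median scaling (adjusted p = 0.0698) and under the all-gene background (adjusted p = 0.0955).

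Of 8 other receptors and ligands, 3 were tested and 2 fell, both of them atypical ligands. DLK2, a Delta-like protein, fell by 0.67 (SE 0.17, adjusted p = 0.0230), and lost the call without aspirin replicate 2 (adjusted p = 0.0513) or 3 (adjusted p = 0.0859), or under the all-gene background (-0.82, adjusted p = 0.0640). DNER, a neuronal EGF-repeat protein, fell by 1.47 (SE 0.36, adjusted p = 0.0234), and lost the call without aspirin replicate 1 or 3 or control replicate 2 or 3 (adjusted p = 0.0657 to 0.0839) and with the all-gene background (-0.17). CNTN1, a contactin, differed by -0.69 ± 0.25 (adjusted p = 0.0816) and passed as lower with the replicate block (adjusted p = 0.00581). DLL3, a ligand known to inhibit Notch within the same cell, was not tested. Its level was 5.42, 6.54 and 6.72 with aspirin, against 4.61, 5.24 and 5.14 in control, above background on 2 of 3 aspirin arrays and 0 of 3 control arrays.

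In the nuclear complex 16 genes were tested, 4 rose and 1 fell. CIR1, a corepressor of RBPJ, rose by 0.56 ± 0.13 (adjusted p = 0.0201). The Groucho-type corepressors TLE2 and TLE4 went in opposite directions. TLE2 was above background on 3 of 3 aspirin arrays and 0 of 3 control arrays and at least 1.35-fold higher (adjusted p = 0.00703). It met the detection filter only through its aspirin arrays, so the filter favoured a rise and its call is no independent support for one. TLE4 fell by 0.55 (SE 0.12, adjusted p = 0.0162), and the acetyltransferase KAT2A rose by 0.75 ± 0.22 (adjusted p = 0.0477).

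CIR1 and TLE4 lost their calls without aspirin replicate 2 or 3 or control replicate 3 (adjusted p = 0.0514 to 0.0725), and both did with median scaling (adjusted p = 0.121 for CIR1 and 0.0675 for TLE4). KAT2A lost its call in 13 of 22 other settings. They include leaving out any 1 array other than control replicate 2 (adjusted p = 0.0760 to 0.149), median scaling, cyclic loess, no background correction, the deposited background-subtracted table, no filter and the all-gene background (adjusted p = 0.0536 to 0.150). With the all-gene background CIR1 differed by 0.16, TLE4 by -0.07 and TLE2 by 0.04. RBPJ itself, named after its values were seen, differed by -0.50 ± 0.17 (adjusted p = 0.0746) and passed as lower with the replicate block (adjusted p = 0.0137), and the acetyltransferase CREBBP, with a difference of 0.38 ± 0.16, passed as higher with the block (adjusted p = 0.0408) and not without it (adjusted p = 0.132).

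**Figure D5:**
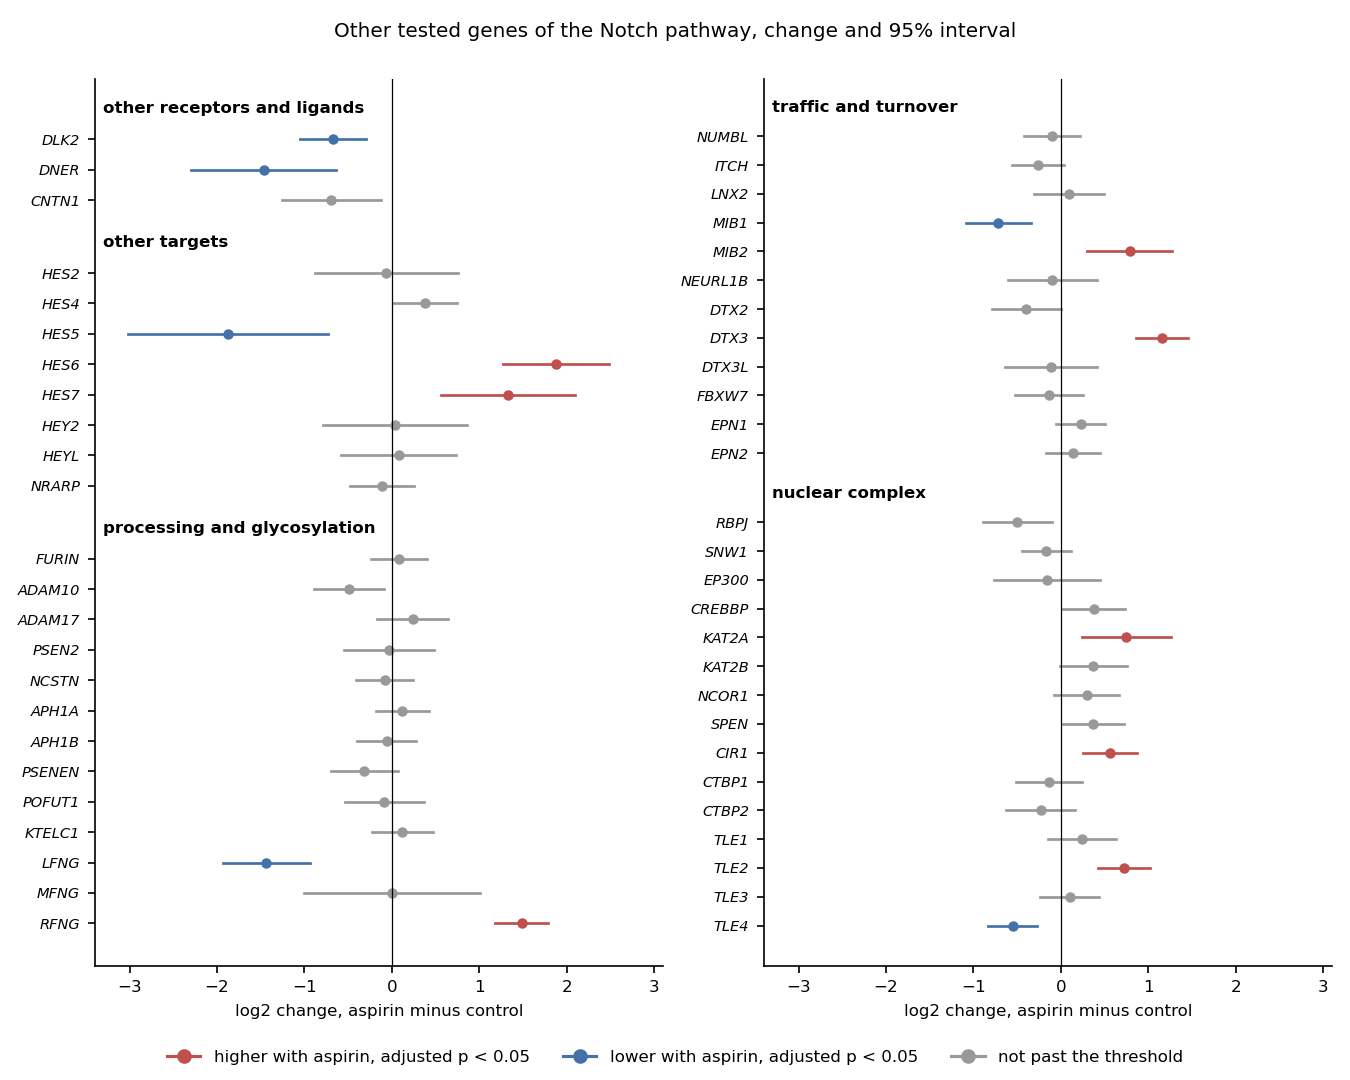
Difference in log2 level, aspirin minus control (horizontal axes), with its 95% interval for 51 of the 53 other tested genes of the Notch pathway, grouped by role. Red marks 8 genes that rose, blue the 6 that fell and grey 37 that did not pass.

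Of 6 genes that respond to Notch in keratinocytes, 3 were tested and 0 passed (limma), with or without the replicate block, while 1 had an unadjusted p under 0.05. KRT10 and TP63 were among those tested. KRT10, a keratin of suprabasal cells, read 9.93, 10.56 and 10.50 with aspirin, against 10.79, 9.68 and 9.57 in control, and was high on control array 1 as KRT1 was. TP63, the basal transcription factor, differed by 0.13 ± 0.14 (adjusted p = 0.553). CDKN1A, the cell cycle inhibitor p21, was not tested because its combined detection score was low, although its level was 10.66 ± 0.29 with aspirin and 10.04 ± 0.20 in control (SD, n = 3 each).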

How the data were processed

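Illumina arrays of 3 aspirin-treated and 3 untreated SCC25 samples were used, grouped by the labels. Per the file headers, the deposited table has 1 signal intensity for a gene on each array. It was not normalized between arrays, and the submitters' processing notes name GenomeStudio 1.9.0. The annotation of the probes and the build are not given in the sources read. Per the file headers the detection columns hold p-values. Their mean was, however, 0.994 for the 1000 brightest genes and 0.170 for the 1000 dimmest, so they were read as a deposited score of 1 minus p. The table holds gene summaries, not the separate probes the design assumed, and 1 gene whose signal was 0 on an array was dropped. A deposited matrix of background-subtracted intensity has names shifted against this table (5 of the 10 Notch genes carry another gene's value there) and served, realigned, as an alternative.

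Signals were corrected with limma 3.58.1 in R 4.3.3 by normexp, whose background mean and SD were inferred from genes with scores in whole steps of 1 in 770 on every array (80.1% of genes, tolerance 0.01 of a step). An offset of 16, quantile normalization and log2 followed. Genes with a score over 0.95 on at least 3 of 6 arrays were tested by lmFit and eBayes, aspirin against control without covariates, with Benjamini-Hochberg adjustment over 15128 genes. The procedure was run on simulated data whose arrays varied independently. That run does not show how the fit behaves when arrays with the same replicate number deviate together, as they did here. Of the Notch pathway lists, every gene past the threshold was named, up to 5 with the smallest p. Of 107 entries over all lists, 105 were found by symbol and 2, POGLUT1 (listed as KTELC1) and NEURL1 (as NEURL), by an older one in a RefSeq table. Deviations from the group means correlated at 0.513, 0.529 and 0.328 within replicate pairs 1 to 3, and the numbers were treated as pairs on that ground, since the labels state no pairing. Where every array of 1 group and no array of the other exceeded the background, the fold is a lower bound: the mean level of the group above background over that of the other group, where each array counts at the higher of its own signal and the lowest signal among genes detected on it.

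Alternatives changed the background, offset, normalization, filter, variance prior and blocks, or left out arrays. Chip 1 alone and leaving out both replicate 2 arrays are the same fit, so every count of settings holds that fit as 2 settings. The Notch genes and all lists were chosen with earlier results of these data known. The signal filter, the definition of above background, the split by replicate 1 the genes nearest to NOTCH1 and NOTCH3, and the motif search were chosen after the data were seen, and pathway genes that did not pass were named after their values were seen. A few genes of the lists are counted but not reported here by name.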

Additional observations from a re-analysis of the deposited data

How the results depend on the processing

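In 22 other settings 0 values changed sign while past the threshold. Of 8 Notch genes tested, 0 passed as first fitted, 1 with the all-gene background (HES1), 1 with the chip as a block (NOTCH1), 2 with the replicate block (NOTCH1 and JAG1), and 0 to 1 with arrays left out (JAG1 without aspirin replicate 3, NOTCH3 without both replicate 1 arrays). Of the 53 other pathway genes, 15 passed as first fitted, 6 with the all-gene background, 6 on chip 1 alone, 10 with no background correction, 10 with no filter, 19 with the replicate block and 2 to 16 with arrays left out. The count was 9 without aspirin replicate 2, 6 without aspirin replicate 3, 8 without control replicate 3, and 2 without both replicate 3 arrays. Over all genes, 3094 passed as first fitted, 1962 with median scaling, 917 on chip 1 alone, 5116 with the replicate block and 465 to 3291 with arrays left out (1825 without aspirin replicate 3, 1891 without control replicate 3 and 465 without both). The cause of these shifts was not tested. Where arrays were left out, fewer arrays also entered the fit, and the part of that in the shifts was not tested either. No setting moved the median difference of all genes by 0.1 or more. Every setting aligned the arrays to one another, which itself holds this median near 0, so it cannot show a shift of all genes. Among called genes 52.0% were higher with aspirin, against 42.6% without both replicate 3 arrays, the lowest share. HEY1, NRARP, NOTCH2 and MAML1 lay near the background, which limits what these arrays can show of them.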
